A study of Mus musculus with 26 samples.

Results

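The long noncoding RNAs that mouse oocytes and 1-cell embryos hold in quantity are described here. They are the genes that the GENCODE vM21 annotation types as lincRNA (transcribed between coding genes) or antisense (transcribed from the strand opposite another gene) and whose mean level over all 26 libraries was at least 10 CPM, its count divided by the library's total and scaled by 1e6. Of 8573 such genes in the deposited count table, 4957 had a count and 158 reached the threshold, 120 of them lincRNA and 38 antisense. They were chosen by these levels, which are given as description. In the whole table of 55401 genes, 7642 had a mean of at least 10 CPM. The lowest members were Gm13465 with a mean of 10.3 CPM and Gm15486 with 10.1 CPM, and the genes just outside were CT025659.2 with 9.99 CPM and Gm12784 with 9.84 CPM.

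All libraries came from B6D2F1 mice. MII oocytes, unfertilised eggs halted in the second meiotic division, formed 1 group of 4 libraries at 0 h, and all other libraries were 1-cell embryos made by in vitro fertilisation of B6D2F1 eggs with B6D2F1 sperm and labelled 10 h. In the alpha-amanitin series, 4 libraries of untreated embryos stood beside 4 of embryos kept in alpha-amanitin at 100 µg/ml for 10 h from 1 h after mixing with sperm. In the c-Myc inhibitor series, 7 libraries of untreated embryos stood beside 7 of embryos kept for 10 h, from 2 h after mixing, in 10058-F4, a thiazolidinone compound that the labels describe as blocking activation of c-Myc target genes. By the protocol, treatment ended at 11 h with alpha-amanitin and at 12 h with 10058-F4, beside an age label of 10 h, so the age of treated embryos is uncertain. No vehicle is named for the controls. Each group's replicates are libraries, and whether a library holds 1 embryo is not stated outright, so SD and n refer to libraries. Totals were 20566278 to 27266040 counts in the 14 libraries of the c-Myc inhibitor series and 5371602 to 31540627 in the 12 of the alpha-amanitin series, and 0 counts in a library still allow 0.0951 to 0.558 CPM, depending on its depth, by counting error alone. The shallowest library, replicate 3 of the alpha-amanitin embryos, had the lowest CPM of all 26 libraries for 57 members and the highest for 23.

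Long noncoding RNAs are transcripts longer than small RNAs that are not known to code for a protein. Many are spliced and capped like mRNAs, and for most of those abundant in oocytes no role is established. A fully grown oocyte transcribes little, so the RNA of the MII oocyte was stored during growth, and after fertilisation the stored RNA is degraded while the embryo's own genome is first transcribed. Alpha-amanitin blocks RNA polymerase II, the enzyme that makes most long noncoding RNAs. c-Myc pairs with Max and binds the E-box, most often written CACGTG.

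Promoter windows are printed for 4 members on which the results below turn. Gm1070 had the largest change of any member with the c-Myc inhibitor, and BC002059 and Gm5165 fell with it. Gm6712, a lincRNA near Gm5165, was added after its values were seen, and its change did not pass the edgeR test (adjusted p = 0.0992). Each window is the RefSeq sequence (GRCm38.p6) from 250 bases before to 50 after the gene's start, read 5′ to 3′ on the + strand, and capitals mark TTCCGG on either strand. The windows lie at chr6:71293515-71293814 for Gm1070, chr17:16951286-16951585 for BC002059, chr17:17234653-17234952 for Gm5165 and chr17:17294193-17294492 for Gm6712.
Gm1070: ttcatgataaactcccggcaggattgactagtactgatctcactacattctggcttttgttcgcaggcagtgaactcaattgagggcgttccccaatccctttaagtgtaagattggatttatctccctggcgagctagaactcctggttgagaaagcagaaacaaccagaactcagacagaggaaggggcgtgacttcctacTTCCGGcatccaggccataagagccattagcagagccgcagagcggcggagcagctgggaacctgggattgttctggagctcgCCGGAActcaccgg
BC002059: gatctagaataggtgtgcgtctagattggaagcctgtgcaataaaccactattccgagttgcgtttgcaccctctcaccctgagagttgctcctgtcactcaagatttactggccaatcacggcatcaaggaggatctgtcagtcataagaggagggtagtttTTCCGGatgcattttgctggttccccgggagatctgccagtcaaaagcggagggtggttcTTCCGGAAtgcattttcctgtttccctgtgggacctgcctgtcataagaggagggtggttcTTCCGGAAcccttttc
Gm5165: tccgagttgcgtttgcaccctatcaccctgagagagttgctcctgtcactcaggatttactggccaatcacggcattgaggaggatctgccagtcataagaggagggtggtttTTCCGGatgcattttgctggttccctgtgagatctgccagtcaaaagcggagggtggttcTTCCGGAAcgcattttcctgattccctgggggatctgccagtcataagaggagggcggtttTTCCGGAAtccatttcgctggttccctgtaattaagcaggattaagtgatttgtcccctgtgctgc
Gm6712: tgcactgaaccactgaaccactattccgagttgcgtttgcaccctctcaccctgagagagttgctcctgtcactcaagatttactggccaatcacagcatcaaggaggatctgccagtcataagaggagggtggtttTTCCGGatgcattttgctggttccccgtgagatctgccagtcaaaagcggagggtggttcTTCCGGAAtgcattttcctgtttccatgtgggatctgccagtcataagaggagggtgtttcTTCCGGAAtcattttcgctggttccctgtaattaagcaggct

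The chromosome 17 windows are copies of one another. The best local alignment of the BC002059 and Gm6712 windows had 95.4% identity over 259 columns, that of Gm5165 and Gm6712 94.5% over 274, and that of BC002059 and Gm5165 92.4% over 250. In each of them TTCCGG occurs at 3 places in the repeated stretch, and 2 of these read TTCCGGAA, which holds the motif on both strands and so gives 5 matches. Of all 32851 RefSeq windows of this length, 14.9% hold at least 1 match and 0.204% at least 4, and among the 103 windows found for 83 of the members these 3 were the only ones with at least 4. The motif was picked after the windows were read. The Gm1070 window holds 2 matches, 12 CpG pairs, and no alignment to the other windows longer than 12 columns. CACGTG is in none of the 4 windows. It is in 16 of the 103 member windows (15.5%) and in 7.15% of all windows, where several member windows are overlapping starts of 1 gene. CACCTG, also counted, is in 31.1% of member windows and 20.2% of all windows, so CACGTG was not the only motif more frequent in members. TATAAA is in 13.6% of member windows and 13.6% of all windows, and CCAAT, counted on both strands, in 38.8% and 37.4%. A match describes letters and shows no binding.

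Together the 158 members held about 1% of all counts. Their summed level was 10777 ± 215 CPM (SD, n = 4) in oocytes, 12506 ± 683 (n = 4) in controls of the alpha-amanitin series, 11917 ± 933 (n = 4) with alpha-amanitin, 10222 ± 270 (n = 7) in the controls of the c-Myc inhibitor series and 10002 ± 392 (n = 7) with the c-Myc inhibitor. A few members made most of this. The 5 with the highest mean CPM held 50.3% of the members' summed mean, 17 members reached 100 CPM, 71 lay between 10 and 20 CPM, and the median was 21.6 CPM. Group means were at least 10 CPM in all 5 groups for 119 members, and 120 had counts in all 26 libraries. The rule sets a mean of at least 10 CPM over these same libraries, so it favoured both counts. For 86 members the highest group mean was under 2 times the lowest, and for 8 it was at least 4 times.

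Per kilobase of exon, the scale on which genes can be compared, the highest named members were C86187 (968 CPM per kb), Gm1965 (455), 4933427D06Rik (443), Gm839 (196), Gm3143 (142), Gm47432 (135), Gm47066 (129) and Gm1070 (125). What these RNAs do was not examined here. In CPM the order of the top 12 was C86187, 4933427D06Rik, Gm1965, Gm839, Gm1070, Arhgap20os, A730082K24Rik, Gm47066, D6Ertd474e, AA545190, Gm3143 and Gm45272, from a mean of 2338 CPM down to 115 CPM. C86187 lies at chr7:46967711-46975911 on the minus strand, with 4 exon blocks. It had 2384, 2233, 2366 and 2277 CPM in oocytes and a median of 2274 CPM (1964 to 2337) in the controls of the c-Myc inhibitor series, which overlap. Members were longer than other genes of their type. CPM is not divided by length, so longer genes reach the threshold more easily and the rule favoured this difference. Median exonic length was 2000 bp with 4 exon blocks, beside 959 bp and 3 blocks in the 8415 lincRNA and antisense genes below the threshold and 5210 bp and 12 blocks in 7337 coding genes of at least 10 CPM. Only 3 members (1.9%) had a single exon.

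Of the long noncoding RNAs with well-known names, few were abundant. A list of 55 names gave 47 genes in the table, 29 of lincRNA or antisense type. Names were matched by symbol, so a listed RNA annotated under another name was missed, and Sirena1 had no match. Tug1, an RNA first described in the retina, reached a mean of 42.6 CPM. Malat1, a nuclear RNA of speckles that is among the most abundant long noncoding RNAs of most somatic cells, reached 27.3 CPM. Pvt1, the neighbour of the Myc gene, reached 20.3 CPM. The other 26 stayed below the threshold, 18 of them under 1 CPM. Xist, which coats the inactive X chromosome, had a mean of 0.117 CPM, H19, an imprinted RNA, 0.00324 CPM, and Neat1, which builds paraspeckles, 0.675 CPM. Of the 18 listed genes of other types, only D6Ertd527e, typed as protein-coding, reached 10 CPM (2539 CPM).

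Most antisense members overlap a coding gene. An opposite-strand coding gene overlapped 33 of the 38, in 21 of them exon on exon, and the member had the higher mean CPM in 18. No source used here gives the strand setting of the authors' counting, so reads of such exons cannot be assigned to a strand with certainty. Arhgap20os (280 CPM) overlaps Arhgap20 (24.6 CPM), Gm14820 (84.2 CPM) overlaps Suv39h1 (0.244 CPM) and Gm20548 (67.3 CPM) overlaps Wdfy3 (169 CPM). A330093E20Rik (52.0 CPM) overlaps Kcnn2 (26.8 CPM), and Gm42817 (47.9 CPM) lies in Tmem132d (30.5 CPM) with no shared exon.

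**Figure D1:**
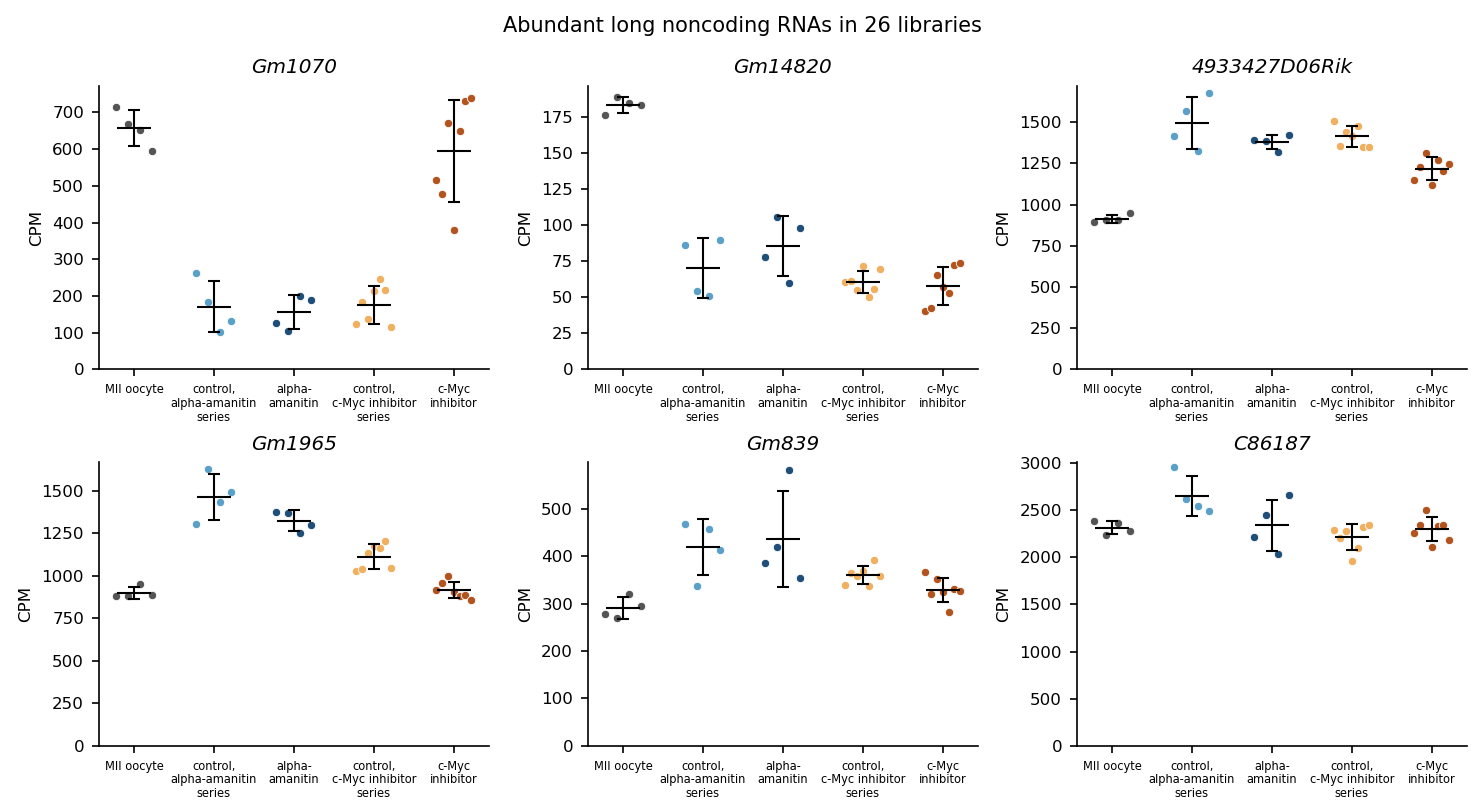
CPM per library (y axis, from 0) of 6 abundant long noncoding RNAs in the 5 groups (x axis). Points are libraries, and bars are the mean and SD (n = 4 in the first 3 groups, 7 in the others). Gm1070 lies at 595 to 714 CPM in oocytes, 116 to 246 in the controls of the c-Myc inhibitor series and 380 to 740 with the inhibitor.

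Between the MII oocyte and the 1-cell embryo, 5 members changed. Gm1070 and Gm14820 fell, and 4933427D06Rik, Gm1965 and Gm47432 rose, in the edgeR quasi-likelihood test of the 4 control embryo libraries of the alpha-amanitin series against the 4 oocyte libraries (Benjamini-Hochberg adjusted p under 0.05 over 13133 genes). These 3 rises of 158 compare with a background of 1.11% of all genes tested, and the 2 falls with 1.78%, so the shares of members called were near those of all genes. The members' median log2 fold change was 0.16, with 95 above 0 and 63 below, and that of all genes tested was -0.03. It was also 0.16 in lincRNA and antisense genes below the threshold and 0.18 in other long noncoding types. The shift was thus not particular to the members.

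Gm1070 (chr6:71293765-71302880, plus strand, 2 exon blocks) had 714, 668, 653 and 595 CPM in oocytes and 262, 185, 103 and 132 CPM in control embryos. The groups did not overlap, and the lowest oocyte library stood far above the highest embryo library. Its log2 fold change was -1.90 (SE 0.26, adjusted p = 0.000157). It overlaps Smyd1, a muscle methyltransferase gene on the other strand, with no shared exon, and Smyd1 had a mean of 0.0282 CPM.

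Gm14820 lies on the X chromosome (chrX:8042943-8074619, plus strand, 9 exon blocks), antisense to Suv39h1, which encodes a histone H3 methyltransferase. It had 176, 189, 185 and 183 CPM in oocytes and 86.0, 54.3, 51.2 and 90.1 CPM in control embryos. Oocyte libraries were within a narrow range and all above the embryos, with a log2 fold change of -1.34 (SE 0.26, adjusted p = 0.00465).

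The risers include a pair of neighbours on chromosome 6. 4933427D06Rik (chr6:88950683-89110031) and Gm1965 (chr6:89140994-89147388) lie on the plus strand 30963 bp apart, and Gm839 (chr6:89211165-89216237) follows on the minus strand 63777 bp further. Their transcripts share no stretch of at least 100 bp at 95% identity with one another. 4933427D06Rik had 894, 906, 906 and 950 CPM in oocytes and 1416, 1567, 1325 and 1680 CPM in control embryos. Gm1965 had 881, 882, 954 and 888 CPM in oocytes and 1302, 1628, 1433 and 1494 CPM in control embryos. Both were higher in every embryo library, with log2 fold changes of 0.75 (SE 0.12, adjusted p = 0.000689) and 0.74 (SE 0.12, adjusted p = 0.000781). Gm839 had 279, 269, 320 and 294 CPM in oocytes and 469, 338, 457 and 412 CPM in control embryos, also without overlap, but its log2 fold change of 0.57 (SE 0.17) did not pass with edgeR (adjusted p = 0.0894), while DESeq2 gave an adjusted p of 0.0473 and limma voom 0.0236. Levels are shares of a library's counts. A gain of an RNA and a slower loss than that of other RNAs therefore cannot be told apart. Shares also do not give the amount of RNA per cell.

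Gm47432 had 112, 116, 48.3 and 62.7 CPM in oocytes and 188, 168, 162 and 193 CPM in control embryos. The groups did not overlap (log2 fold change 1.11, SE 0.26, adjusted p = 0.0196), but the call was lost when oocyte replicate 3 or 4 or control replicate 2 or 4 was left out (adjusted p up to 0.0904). In all, 19 members (12%) had ranges that did not overlap between these groups, as did 14.6% of all genes tested.

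Embryos kept in alpha-amanitin differed from oocytes at 5 members. The comparison shares its 4 oocyte libraries with the one above, so the values are set side by side. Gm1070 had 126, 106, 199 and 190 CPM with alpha-amanitin (log2 fold change against oocytes -2.09, SE 0.26, adjusted p = 6.84e-05), again below every oocyte library. Gm14820 had 78.0, 106, 60.1 and 98.5 CPM (-1.11, SE 0.25, adjusted p = 0.0271), a call lost without any 1 of the 4 oocyte libraries or without alpha-amanitin replicate 1 (adjusted p up to 0.0844). On the rising side, 4933427D06Rik had 1393, 1388, 1317 and 1422 CPM (0.59, SE 0.12, adjusted p = 0.00909) and Gm1965 1378, 1371, 1251 and 1301 CPM (0.55, SE 0.12, adjusted p = 0.0149). All 8 values lay above the oocytes' values of the same gene. Gm45272 was the third riser, with 113, 86.3, 64.1 and 61.2 CPM in oocytes and 112, 147, 299 and 218 CPM with alpha-amanitin (1.25, SE 0.30, adjusted p = 0.0359). Its groups overlapped, and limma voom and 6 of the fits without 1 library did not call it, among them the fit without the shallow alpha-amanitin replicate 3. The 3 rises and 2 falls of 158 stand beside 0.442% and 1.27% of all genes tested. Ranges did not overlap for 12% of members and for 11.4% of all genes. Without oocyte replicate 2 no rise was called, and without oocyte replicate 1 or 4 only 1 was, while Gm1070 was called in each of the 12 fits without 1 library.

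No member passed the test of alpha-amanitin against its own controls. With edgeR, 0 of 158 were called, and 5 had an unadjusted p under 0.05. All genes gave 3 higher (0.0228%) and 1 lower (0.00761%) of 13133. DESeq2 also called 0 members (11 unadjusted), as did limma voom (9 unadjusted) and each fit without 1 library. The members' median log2 fold change was -0.03, and single members ran from -3.07 to 2.56. The members with the smallest p were D6Ertd474e and Gm30159. D6Ertd474e had 254, 203, 218 and 179 CPM in controls and 136, 165, 155 and 94.5 CPM with alpha-amanitin, without overlap (-0.68, SE 0.22, adjusted p = 0.524). Gm30159 had 66.0, 46.0, 74.6 and 98.3 CPM in controls and 51.5, 38.4, 10.1 and 22.1 CPM with alpha-amanitin (-1.26, SE 0.46, adjusted p = 0.524). Ranges did not overlap for 5 members (3.16%) and for 2.64% of all genes.

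The spread within groups limits this comparison. The median coefficient of variation of a member's CPM was 53.7% in the controls and 53.9% in the alpha-amanitin embryos, beside 31.8% in oocytes and 24.8% and 24.9% in the controls and treated embryos of the c-Myc inhibitor series. Low members swung most. Pvt1 had 83.5, 28.4, 28.0 and 5.41 CPM in the control embryos and 0 to 45.4 CPM with alpha-amanitin, with 0 in the shallow replicate 3. Gm15691 had 66.9 CPM in 1 control library, 23.4% of its summed CPM over all 26, and 0.610 to 13.9 CPM in the other controls. Control replicate 1 alone gave the highest value of all libraries for 32 members.

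**Figure D2:**
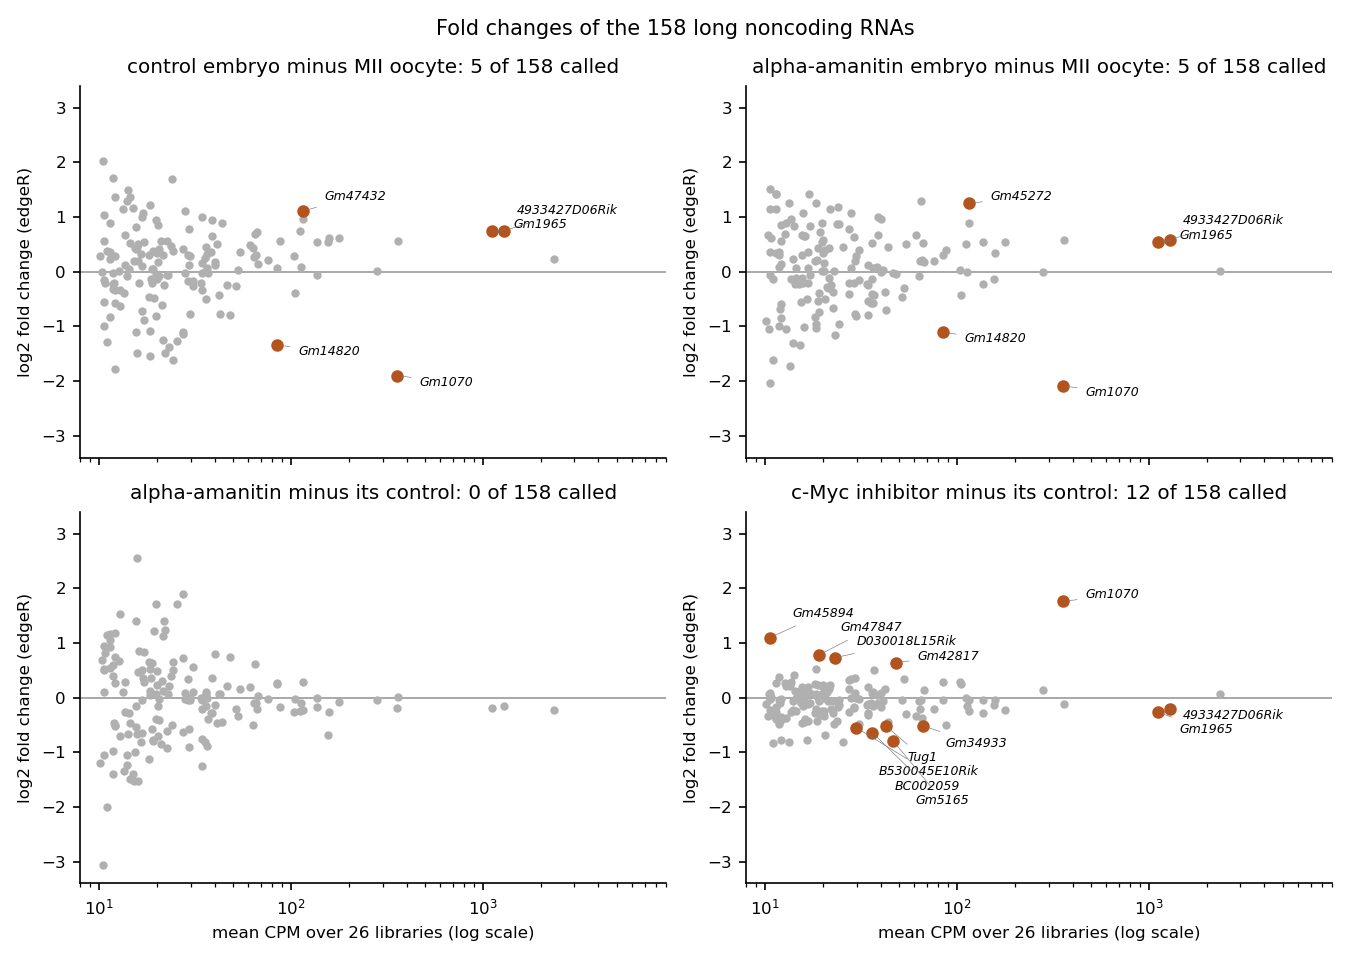
Log2 fold change (y axis) against mean CPM over 26 libraries (x axis, log scale) for the 158 members in 4 comparisons. Each point is a member, and coloured, named points passed an adjusted p of 0.05: 5, 5, 0 and 12 members. The scatter at low CPM is wide in the 3 comparisons of the alpha-amanitin series and narrow with the c-Myc inhibitor.

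With the c-Myc inhibitor, 12 members changed. Gm1070, Gm45894, Gm47847, D030018L15Rik and Gm42817 rose, and Gm5165, BC002059, B530045E10Rik, Tug1, Gm34933, Gm1965 and 4933427D06Rik fell (edgeR, adjusted over 13003 genes). The 5 rises (3.16% of members) compare with 6.82% of all genes tested and the 7 falls (4.43%) with 4.08%. Among coding genes of at least 10 CPM the shares were 11.2% and 6.84%. Small shifts leaned downward: 104 members had a log2 fold change below 0 and 54 above, with a median of -0.08, beside a median of -0.01 in those coding genes. The median was -0.14 in lincRNA and antisense genes below the threshold and 0.00 in other long noncoding types. Of 642 lincRNA and antisense genes tested below the threshold, 1 was higher and 0 lower (edgeR, 7 with an unadjusted p under 0.05), and of 221 genes of other long noncoding types 0 were called (edgeR, 8 unadjusted).

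Gm1070 stood apart in size. It had 116 to 246 CPM in the 7 control libraries (median 182) and 380 to 740 CPM in the 7 treated libraries (median 650), with no overlap. The log2 fold change was 1.76 (SE 0.17, adjusted p = 1.29e-07), and it was called in all 14 fits without 1 library and under every other setting. The treated libraries overlapped the range of the oocytes of the other series (595 to 714 CPM), and the controls that of its control embryos (103 to 262 CPM). Summed transcripts of 11 oocyte genes, among them the egg coat genes Zp1, Zp2 and Zp3, ran the same way in oocytes and this series. They were 8817 to 9713 CPM in oocytes, 4252 to 6077 in controls and 7265 to 8962 with the inhibitor. In the alpha-amanitin series they were 4435 to 5581 CPM in controls (median 5066) and 4505 to 7025 with alpha-amanitin (median 6078). Gm1070 had a log2 fold change of -0.19 there, not called with edgeR. The part of these 11 genes in the result was not tested. Gm14820, the other member that fell after fertilisation, did not follow: it had 50.2 to 71.7 CPM in controls and 40.5 to 74.0 CPM with the inhibitor (log2 fold change -0.05, SE 0.14, adjusted p = 0.913).

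The other risers were less abundant. Gm42817, antisense within Tmem132d, had a median of 28.9 CPM (24.2 to 38.9) in controls and 50.6 CPM (38.1 to 58.7) with the inhibitor (0.64, SE 0.15, adjusted p = 0.00561). D030018L15Rik went from 15.8 CPM (13.6 to 24.0) to 27.4 CPM (23.7 to 38.5), with a log2 fold change of 0.73 (SE 0.18, adjusted p = 0.00795). The ranges of both touched at their edges. Gm47847 did not overlap, at 9.74 to 15.6 CPM and 17.5 to 23.7 CPM (0.78, SE 0.19, adjusted p = 0.00622). Gm45894, antisense to the chromatin regulator gene Ankrd11, had 4.13 to 10.8 CPM and 9.63 to 20.4 CPM (1.10, SE 0.28, adjusted p = 0.0111). Its mean over all 26 libraries was only 10.6 CPM. The treated libraries averaged 13.6 CPM and their controls 6.47 CPM, so its rise was favoured by the rule. Ankrd11 shares 1299 bp of exon with Gm45894 and had a log2 fold change of 0.44 (adjusted p = 0.317). All 5 rises were called in each of the 14 fits without 1 library. In 1 fit of all 26 libraries, Gm1070 alone of these 5 was still called higher, and Gm5165 and Gm1965 alone of the 7 were called lower.

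On chromosome 17, Gm5165 and BC002059 fell, and Gm6712, 28380 bp from Gm5165, did not pass the test. Gm5165 (chr17:17234872-17266063) had a median of 50.6 CPM (33.1 to 65.6) in controls and 27.1 CPM (24.6 to 38.3) with the inhibitor. Its log2 fold change was -0.80 (SE 0.15, adjusted p = 0.000603), and its call held under every setting tried. BC002059 (chr17:16951539-16974157) had 40.6 CPM (35.5 to 54.9) and 26.1 CPM (19.9 to 36.9), with a log2 fold change of -0.64 (SE 0.15, adjusted p = 0.00589). In each of these genes 1 treated library reached into the range of the controls. Gm6712 (chr17:17294443-17319511), named here after its values were seen, had 16.8 CPM (7.51 to 27.4) and 10.9 CPM (3.49 to 13.1), and its log2 fold change of -0.78 (SE 0.30) did not pass with edgeR (adjusted p = 0.0992), while DESeq2 gave an adjusted p of 0.0472. All 3 lie on the plus strand and carry the like promoter windows printed above. Gm5165 and Gm6712 transcripts are 95.4% identical over 522 bp. Reads of that stretch could be assigned to either gene. BC002059 shares 122 bp at 97.5% identity with Zfp97, a zinc finger gene. The nearest coding genes, Zfp97 for Gm5165, Zfp960 for BC002059 and Riok2 for Gm6712, had log2 fold changes of -0.42, -0.32 and -0.39.

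Tug1 is the well-known member that fell. It had 36.6 to 53.8 CPM in controls (median 43.0) and 21.1 to 39.8 CPM with the inhibitor (median 30.9), and the ranges overlapped. The log2 fold change was -0.52 (SE 0.16, adjusted p = 0.0341), lost without control replicate 4, 5 or 6 or treated replicate 1, 3 or 5. With the replicate number as a block in edgeR, Tug1 was not called (adjusted p = 0.147). It shares 483 bp of exon with Morc2a on the other strand, which had a log2 fold change of -0.22 (adjusted p = 0.325). Pvt1 and Malat1 were not called. Pvt1 had 12.6 to 19.4 CPM and 6.61 to 19.7 CPM (-0.33, SE 0.24, adjusted p = 0.474), and the nearest coding gene, Myc itself, had a mean of 0.133 CPM. Malat1 ranged from 6.11 to 66.6 CPM within the controls alone.

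B530045E10Rik fell from 40.7 CPM (23.5 to 44.8) to 26.1 CPM (21.3 to 31.1), with a log2 fold change of -0.55 (SE 0.16, adjusted p = 0.0223). Gm34933 fell from 63.8 CPM (48.9 to 80.6) to 41.7 CPM (33.7 to 57.3), by -0.52 on the log2 scale (SE 0.15, adjusted p = 0.0233). Both sets of ranges overlapped. The call of B530045E10Rik was lost without control replicate 7 (adjusted p = 0.0516). That of Gm34933 was lost without control replicate 5 or 7 or treated replicate 3 or 5 (adjusted p up to 0.0661). With the replicate number as a block in edgeR, neither was called (adjusted p = 0.112 for B530045E10Rik and 0.117 for Gm34933). The abundant neighbours on chromosome 6 fell by little but with no overlap. Between controls and treated libraries of this series, ranges did not overlap for 2.53% of members and for 4.05% of all genes tested. Gm1965 had 1026 to 1205 CPM and 861 to 998 CPM (-0.27, SE 0.07, adjusted p = 0.00825). 4933427D06Rik had 1348 to 1508 CPM and 1121 to 1314 CPM (-0.20, SE 0.06, adjusted p = 0.0332), a call lost without control replicate 1, 4, 5 or 6 or treated replicate 1 or 4 and with no filter on low counts. The replicate number as a block in edgeR also lost it (adjusted p = 0.119). Gm839, the third of that neighbourhood, was at -0.11 (SE 0.07, adjusted p = 0.380).

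**Figure D3:**
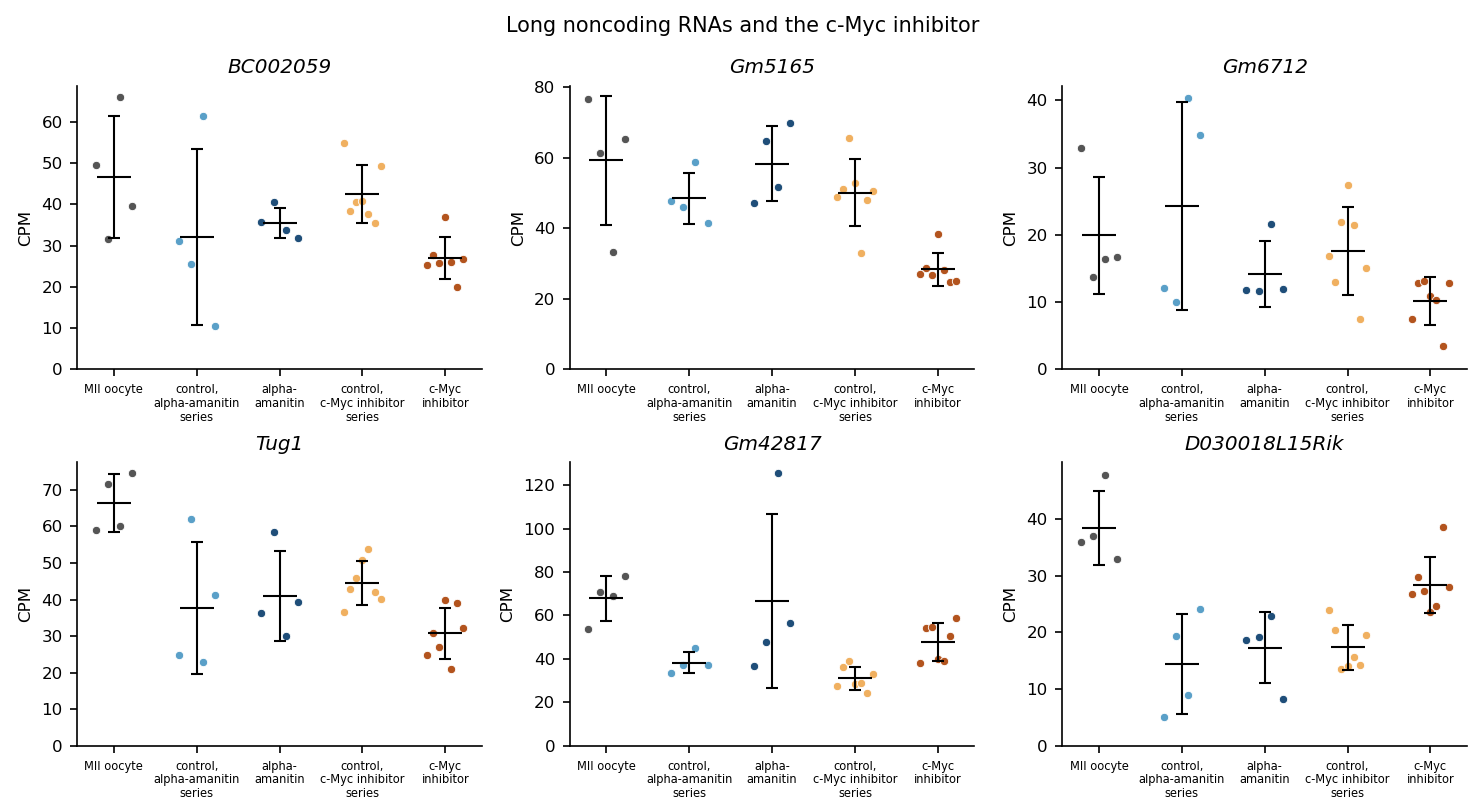
CPM per library (y axis, from 0) in the 5 groups (x axis) of the chromosome 17 lincRNAs, Tug1 and 2 members that rose with the c-Myc inhibitor. Points are libraries, and bars are the mean and SD. Gm5165 has medians of 50.6 CPM in controls and 27.1 CPM with the inhibitor, and Gm42817 of 28.9 and 50.6 CPM.

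The inhibitor's changes can be set beside those after fertilisation, since the comparisons share no library. Of the 12 members called with the inhibitor, 8 had the opposite sign between oocyte and control embryo: Gm1070, Gm45894, D030018L15Rik, Gm42817, Gm34933, B530045E10Rik, Gm1965 and 4933427D06Rik. Gm5165, BC002059 and Tug1 were below 0 in both, and Gm47847 above 0 in both (0.05 after fertilisation). Over all 158 members the sign was opposite in 93 (58.9%), and over the 12280 genes tested in both comparisons in 58.5%. Among all 1412 genes called with the inhibitor and tested in both, it was opposite in 80.2%.

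Gm1070 was the member whose response differed between the inhibitors. In 1 fit of the 22 embryo libraries, the effect of the c-Myc inhibitor exceeded that of alpha-amanitin by 1.96 on the log2 scale (SE 0.34, adjusted p = 0.00215), and the call held in all 22 fits without 1 library. Alpha-amanitin had left it at 155 ± 46.3 CPM (SD, n = 4) beside 170 ± 69.8 CPM (n = 4) in its controls. This was 1 of 158 members in the higher direction, where 0.678% of all 15790 genes were called. No member was called in the other direction with edgeR (7 with an unadjusted p under 0.05) or limma voom, 2 were with DESeq2, and 0.367% of all genes were. Gm5165 had the next smallest p (-1.01, SE 0.31, adjusted p = 0.0983). The compounds differ in start time and series as well as in target, which cannot be told apart here.

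Untreated embryos of the 2 series carry the same age label, and 9 members were lower in the c-Myc inhibitor series than in the alpha-amanitin series, and none was higher with edgeR (4 with an unadjusted p under 0.05; DESeq2 and limma voom each called 1). All genes gave 1.32% lower and 2.21% higher of 16319. The members' median log2 difference was -0.26, and that of coding genes of at least 10 CPM was 0.01. It was 0.38 in lincRNA and antisense genes below the threshold and 0.58 in other long noncoding types, opposite in sign to the members. Levels set across the series carry the difference between the series, and its source was not tested.

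Gm14236 differed most. It had 40.3, 43.7, 44.1 and 106 CPM in oocytes, 89.1, 94.1, 52.7 and 78.0 CPM in controls and 112, 94.9, 86.2 and 47.2 CPM with alpha-amanitin. In the c-Myc inhibitor series it had 3.04 to 4.42 CPM in controls and 2.60 to 5.06 CPM with the inhibitor. No library of 1 series came near the other, and the log2 difference of the controls was -4.47 (SE 0.31, adjusted p = 4.7e-12). It met the threshold of 10 CPM only through the alpha-amanitin series, so its difference was favoured by the rule. Gm14236 (chr2:168010529-168011506, plus strand, 2 exon blocks) overlaps 90 bp of Ripor3 on the other strand, which had a mean of 0 CPM. Its log2 fold changes were 0.08 with the c-Myc inhibitor and 0.07 with alpha-amanitin, neither called.

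The other 8 were Gm30159, AY512915, Gm47432, Gm47066, A730082K24Rik, AA545190, Gm1965 and C86187. Gm30159 had 66.0, 46.0, 74.6 and 98.3 CPM in controls of the alpha-amanitin series and 18.4 to 32.2 CPM in those of the other (-1.47, SE 0.30, adjusted p = 0.00337). A730082K24Rik had 296, 255, 222 and 219 CPM and 139 to 172 CPM (-0.66, SE 0.13, adjusted p = 0.00162). Neither overlapped. The remaining log2 differences ran from -0.79 for AY512915 to -0.25 for C86187. Calls were lost in 17 of 26 fits without 1 library for C86187, in 7 for AA545190 (adjusted p up to 0.0996), in 3 for Gm47066, without control replicate 2 or 3 of the alpha-amanitin series or 2 of the other, and in 1 for AY512915, without control replicate 1 of the alpha-amanitin series. Without the filter on low counts, C86187 and AA545190 were not called. For Gm1070 the log2 difference was 0.06 (SE 0.23, adjusted p = 0.926). Without alpha-amanitin replicate 3, 14 members were lower in place of 9.

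**Figure D4:**
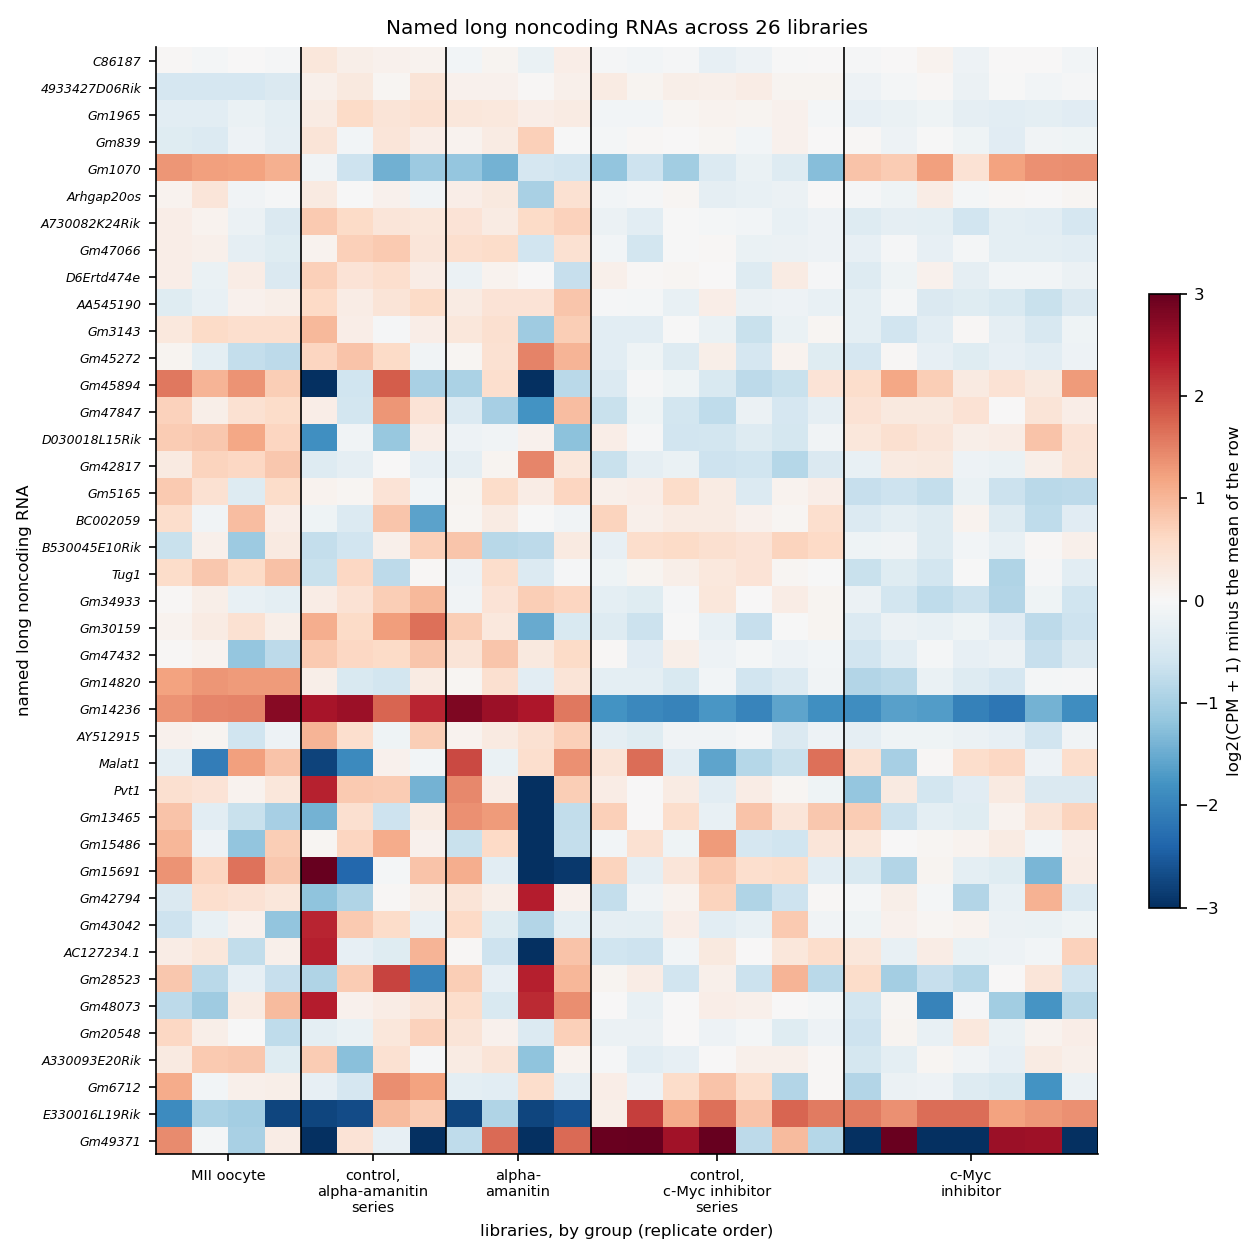
Colour plot of the 41 named members (rows) in the 26 libraries (columns, by group): log2(CPM + 1) minus the row's mean, from -3 (blue) to 3 (red). The Gm1070 row is high in oocytes and with the c-Myc inhibitor, and the Gm14236 row splits between the series.

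Some members varied within a group as much as others between groups, and 2 are named here after their values were seen. E330016L19Rik (chrX:30037837-30087879) was the only member with a mean under 2 CPM in oocytes (0.816, 2.47, 2.31 and 0 CPM). It had 6.64 to 27.1 CPM in the controls of the c-Myc inhibitor series, 14.5 to 20.6 CPM with the inhibitor, 0, 0.0509, 12.0 and 10.3 CPM in the other controls and 0, 2.61, 0 and 0.0980 CPM with alpha-amanitin. Controls of the 2 series overlapped, and their log2 difference of 1.62 (SE 1.10) did not pass with edgeR (adjusted p = 0.436), while limma voom gave 4.33 with an adjusted p of 0.0315. E330016L19Rik met the threshold of 10 CPM only through the c-Myc inhibitor series, so this difference was favoured by the rule. Its transcript is 99.8% identical to Gm2309 over 1941 bp, so its counts could be shared with that copy. Gm49371 went from 0 to 101 CPM within the c-Myc inhibitor series. It had 4.43 to 101 CPM in controls, and with the inhibitor 3 libraries had 55.8 to 75.3 CPM while 4 had 0 to 0.0820 CPM. It shares at least 100 bp at 95% identity with 25 other genes, and 24 members in all share such a stretch with some gene.

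**Figure D5:**
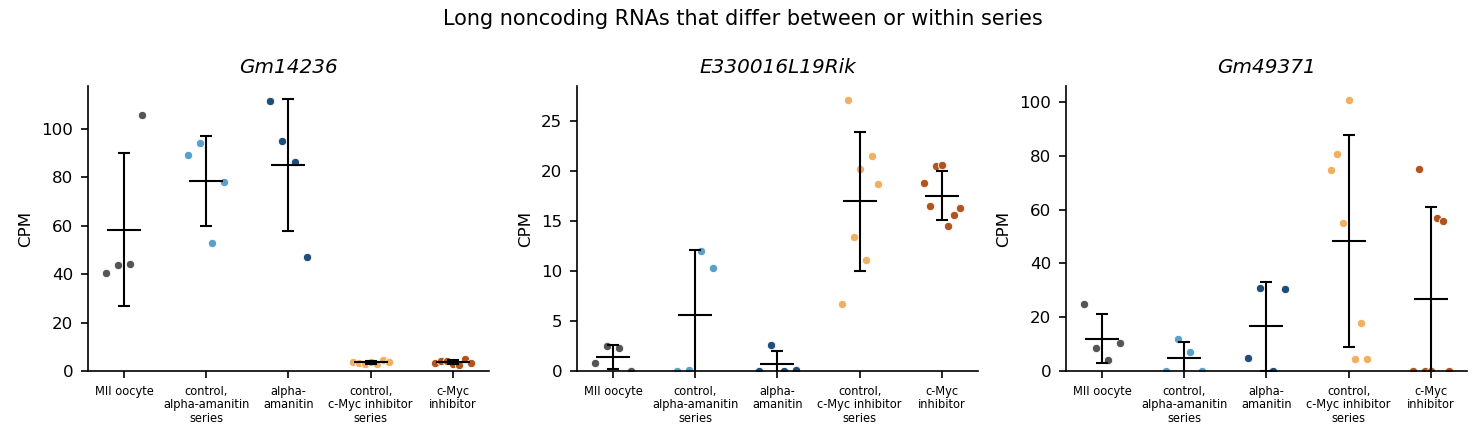
CPM per library (y axis, from 0) of Gm14236, E330016L19Rik and Gm49371 in the 5 groups (x axis), with the mean and SD as bars. Gm14236 is at 40.3 to 112 CPM throughout the alpha-amanitin series and at 2.60 to 5.06 CPM throughout the other. Gm49371 spans 4.43 to 101 CPM among the controls of the c-Myc inhibitor series.

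Antisense members were set beside the coding genes they overlap. For 25 antisense members whose overlapping coding gene was also tested with the c-Myc inhibitor, the signs of member and partner agreed in 13. Of these pairs the member was called in 3, the partner in 5 and both in 0, where 6.82% of all genes tested were called higher and 4.08% lower, and 11.2% and 6.84% of coding genes of at least 10 CPM. Between oocyte and control embryo the signs agreed in 12 of 25. Among lincRNA members, 12 overlap a coding gene, 38 lie at least 100 kb from one, and the median distance was 38764 bp.

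RNA of other cells was low in all groups. Summed levels of 14 cumulus and granulosa cell genes were 10.8 to 55.0 CPM per library, with 3 to 7 of them at 0 in a group. The 8 sperm and spermatid genes summed to 0 to 23.3 CPM, with 5 to 7 at 0, and 5 blood and somatic genes to at most 0.458 CPM outside the alpha-amanitin embryos, where the highest library had 9.68 CPM.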

How the data were processed

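Whole-number counts per gene, one column per library, were deposited by the authors for 55401 Ensembl IDs and 26 libraries. Libraries were made with a stranded total RNA kit for very small inputs, per the labels' protocols. The submitters' processing notes name cutadapt 1.7.1, the aligner STAR 2.5.0a and the build GRCm38. No source used here gives the counter, whether it used strand, or the annotation it read, so overlapping and duplicated genes are uncertain. Gene types, symbols and coordinates came from GENCODE vM21, and 260 IDs had no entry.

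CPM was each count divided by its column total. Fold changes came from edgeR 4.0.16 (quasi-likelihood test, TMM scaling, filterByExpr with minimum count 10 and minimum total count 15, Benjamini-Hochberg threshold 0.05 over all genes) in R 4.3.3. The SE was not fitted but worked back from the test, as the absolute log2 fold change over the square root of F. All 158 members passed the filter in each fit. Fits used the 14 libraries of the c-Myc inhibitor series, the 12 of the alpha-amanitin series, the 22 embryo libraries (difference of the inhibitors' effects) or all 26 (difference of the controls). Alternatives were raw totals, DESeq2 1.42.0 size factors and test, limma 3.58.1 voom, no filter, other membership thresholds, each library left out, the replicate number as a block and 1 fit of all libraries. The fitting function was tested on simulated data. Likeness between transcripts was searched with blastn 2.17.0 (at least 100 bp at 95% identity).

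The members and lists were chosen with earlier results of these data known. Members are named by rule: the 12 highest, up to 6 called per direction and comparison by size of change (the 2 smallest p where fewer than 2 were called), those on the list of known long noncoding RNAs, those at the threshold, the 6 with the largest share in 1 library and the 6 highest antisense. Gm6712, E330016L19Rik, Gm49371 and the neighbours of members were named after their values were seen. Nothing says that replicates were separate animals, and p-values then reflect only the spread of the libraries sequenced.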

Additional observations from a re-analysis of the deposited data

Results flagged for a closer look

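In 205 groups of libraries of the named members, 19 libraries stood far from the rest of their group by Dixon's test, where chance gives about 1 in 20 groups. Some members were named for a large share in 1 library or after their values were seen. The naming therefore favoured such libraries, and the 2 rates cannot be compared. Among oocytes, Gm1965 had 954.3 CPM in replicate 3 (others 881.3 to 888.3), Gm14236 105.6 CPM in replicate 4 (40.32 to 44.08) and Gm6712 32.89 CPM in replicate 1 (13.77 to 16.68). In controls of the alpha-amanitin series, Gm45894 had 30.22 CPM in replicate 3 (0 to 4.883) and Gm48073 55.23 CPM in replicate 1 (11.14 to 13.14). With alpha-amanitin, the shallow replicate 3 had 102.8 CPM of Gm47066 (209.6 to 222.7 in the others), 59.39 CPM of Gm42794 (12.01 to 14.58) and 21.6 CPM of Gm6712 (11.61 to 11.96), and replicate 2 had 2.609 CPM of E330016L19Rik (0 to 0.09803).

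In controls of the c-Myc inhibitor series, Gm47066 had 104.3 CPM in replicate 2 (others 133.4 to 155.6), AA545190 150.2 CPM in replicate 5 (111.9 to 127.9), B530045E10Rik 23.46 CPM in replicate 1 (37.49 to 44.77) and Gm15486 22.45 CPM in replicate 5 (5.392 to 12.38). Replicate 7 had 18.52 CPM of Gm43042 (8.046 to 12.08) and 18.61 CPM of Gm28523 (4.55 to 10.23). With the inhibitor, replicate 7 had 38.53 CPM of D030018L15Rik (23.68 to 29.78), 71.1 CPM of AY512915 (88.99 to 99.11) and 23.36 CPM of Gm42794 (5.458 to 12.36), and replicate 4 had 38.3 CPM of Gm5165 (24.65 to 28.63).

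The effect of the c-Myc inhibitor on Gm1070 exceeded that of alpha-amanitin by 1.96 on the log2 scale (SE 0.34, edgeR adjusted p = 0.00215), by a test of the difference itself.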

How the results depend on the processing

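Counts of members called (edgeR: 5 higher and 7 lower with the c-Myc inhibitor, 0 and 0 with alpha-amanitin, 3 and 2 from oocyte to control embryo, 3 and 2 from oocyte to alpha-amanitin embryo, 1 and 0 in the difference of the inhibitors' effects, 0 and 9 between the controls) moved by over 1.5 times as follows. With DESeq2, 15 members fell with the c-Myc inhibitor, 5 rose from oocyte to control embryo and 6 from oocyte to alpha-amanitin embryo, 2 were lower in the difference of effects, and 1 was higher and 17 lower between the controls. With limma voom, 5 rose from oocyte to control embryo and 1 was higher between the controls. With 1 fit of all 26 libraries, 1 rose and 2 fell with the c-Myc inhibitor, 12 rose and 4 fell from oocyte to control embryo and 7 rose from oocyte to alpha-amanitin embryo. With no filter on low counts, 2 were lower in the difference of effects and 1 was higher between the controls. Counts over all genes moved too: with DESeq2 in place of edgeR, falls with the c-Myc inhibitor went from 531 to 859, rises from oocyte to control embryo from 146 to 285 and to alpha-amanitin embryo from 58 to 219, lower in the difference of effects from 58 to 629, and between the controls higher from 360 to 1175 and lower from 215 to 476. With the fit of all 26 libraries, all genes gave 266 rises and 115 falls with the c-Myc inhibitor and 572 rises and 837 falls from oocyte to control embryo. A membership threshold of 20 CPM gave 3 rises with the c-Myc inhibitor, and one of 5 CPM 1 lower in the difference of effects. The cause was not tested. Leaving out each library in turn gave 2 to 7 rises from oocyte to control embryo (7 without alpha-amanitin replicate 3), 0 to 3 rises and 1 to 2 falls from oocyte to alpha-amanitin embryo, 1 to 2 higher in the difference of effects, and 0 to 1 higher and 6 to 14 lower between the controls (6 without control replicate 1 of the alpha-amanitin series or control replicate 2 of the other, 14 without alpha-amanitin replicate 3). Of the fold changes followed (those given in the text, and Malat1, Tug1 and Pvt1 in 3 comparisons), 776 of 860 fits without 1 library and 320 of 347 under other settings kept both direction and side of the threshold, and none that had been called reversed. Reversals, all in values that edgeR did not call, were Malat1 with the c-Myc inhibitor (log2 fold change -0.26, but 0.09 with limma voom, 0.04 with the replicate block and -0.44 to 0.08 without 1 library) and, without 1 library, Gm14820 (-0.12 to 0.02) and Gm14236 (-0.02 to 0.15) with the c-Myc inhibitor, Tug1 (-0.16 to 0.42), Pvt1 (-1.29 to 0.09) and Gm14236 (-0.11 to 0.26) with alpha-amanitin, and Gm1070 between the controls (-0.13 to 0.35).

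Replicate numbers are shared between groups, and deviations of libraries with the same number had correlations of -0.039 to 0.043. A shared deviation is hard to see under the spread of single libraries, so these values do not show whether the numbers pair the libraries. With the replicate number as a block, 5 members rose and 4 fell with the c-Myc inhibitor (701 and 291 of all genes, beside 887 and 531), 3 and 2 from oocyte to control embryo, 2 and 2 from oocyte to alpha-amanitin embryo, 1 and 0 in the difference of effects and 0 with alpha-amanitin. Calls of all genes also differed by test: for alpha-amanitin DESeq2 called 91 higher and 32 lower beside 3 and 1 with edgeR.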
